A study of Mus musculus with 6 samples.

Results

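The B7 family ligands examined here are 7 genes, *Cd80*, *Cd86*, *Icosl*, *Cd274*, *Pdcd1lg2*, *Cd276* and *Vsir*, taken by symbol from the 24499 genes of the count table. They were followed in in vitro germinal center B cells (iGCBs), which are B cells driven towards a germinal center phenotype in culture. Naïve B cells were grown for 3 days with IL-4 on irradiated 40LB feeder cells, a BALB/c 3T3 fibroblast line that expresses CD40L and BAFF. YFP+ cells were sorted for RNA-seq. There were 3 cKO and 3 control libraries, which the study calls biological replicates. The number of mice behind each library is not given in the sources used here. The cKO mice carried Eif3e fl/fl, Cγ1Cre and Rosa26-YFP LSL. The labels call the other group control, its library names contain cgWT, and the study describes Cγ1Cre Rosa26-YFP LSL mice as controls, so both groups carried the Cre and the reporter. Cγ1Cre is switched on by transcription through the Ig γ1 constant region, so deletion takes place in activated B cells during the culture and the YFP gate selects cells that have expressed Cre. The mice were C57BL/6J, and their age is not given in the sources used here.

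B7 ligands are membrane proteins of the immunoglobulin superfamily through which antigen-presenting cells, B cells among them, give T cells a second signal beside the antigen. CD80 and CD86 bind the activating receptor CD28 and the inhibitory receptor CTLA-4, and ICOSL binds ICOS, a receptor on which follicular helper T cells depend. PD-L1 (encoded by *Cd274*) and PD-L2 (*Pdcd1lg2*) bind the inhibitory receptor PD-1, VISTA (*Vsir*) restrains T cell activation, and the receptor of B7-H3 (*Cd276*) is not settled. On B cells, CD80 and CD86 are induced by activation, through CD40, the B cell receptor and cytokines.

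The library totals ranged from 39079582 to 45504570 counts. *Eif3e*, the targeted gene, had 158 ± 13.1 CPM (counts scaled by library size; mean ± SD, n = 3) in cKO iGCBs against 406 ± 16.5 CPM in controls, 39.0% of control. *Xist*, which is transcribed in female cells, was abundant in 1 cKO and 2 control libraries and had at most 16 counts in the others, so the groups were not matched for it. The 5 B cell markers *Ms4a1*, *Cd79a*, *Cd79b*, *Cd22* and *Pax5* summed to between 3131 and 3339 CPM in cKO and to between 3451 and 3708 CPM in control libraries, with 2 higher and 3 lower. The 5 germinal center B cell markers *Fas*, *Bcl6*, *S1pr2*, *Mef2b* and *Gcsam* summed to between 202 and 217 CPM in cKO and to between 259 and 296 CPM in control libraries, with *Gcsam*, *Mef2b* and *Bcl6* lower and *Fas* higher. The part of these markers in the ligand values was not tested. In sorted bulk cells, fewer cells that express a ligand and less RNA per cell cannot be told apart.

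The promoters of *Cd80* and *Pdcd1lg2* are shown because these are the only ligands of the 6 with a promoter in the RefSeq table that matched a motif other than the NF-kB type. Each run is the 250 bases before the RefSeq start on GRCm38.p6, plus strand. The *Cd80* window, chr16:38458683-38458932, has its AP-1-type match in capitals and lies in an intron of a longer GENCODE M21 transcript of *Cd80* that starts upstream. The *Pdcd1lg2* window, chr19:29410669-29410918, has its STAT6-type match in capitals and ends at the base before the GENCODE start of the gene. The motifs put in capitals were chosen after the matches were seen.
Cd80: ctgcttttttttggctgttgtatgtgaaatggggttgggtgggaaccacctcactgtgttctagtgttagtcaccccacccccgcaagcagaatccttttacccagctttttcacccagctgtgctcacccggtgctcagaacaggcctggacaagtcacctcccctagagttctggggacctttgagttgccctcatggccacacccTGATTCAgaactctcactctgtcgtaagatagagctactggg
Pdcd1lg2: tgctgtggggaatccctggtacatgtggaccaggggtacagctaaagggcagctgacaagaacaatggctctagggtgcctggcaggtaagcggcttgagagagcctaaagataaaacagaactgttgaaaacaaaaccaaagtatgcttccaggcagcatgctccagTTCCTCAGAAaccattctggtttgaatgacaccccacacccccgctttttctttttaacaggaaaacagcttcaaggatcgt

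A set of 5 motifs was searched on both strands. The AP-1-type motif TGANTCA, with any base in the middle, matched once in *Cd80*, from 42 to 36 bases before the start. It is held by 6.75% of the 32851 RefSeq promoter windows of this length. The STAT6-type motif TTCNNNNGAA matched once in *Pdcd1lg2*, from 82 to 73 bases before the start, and is held by 5.85% of windows. Neither match overlaps a match of another motif. The NF-kB-type motif GGGNNNNNCC, held by 45.8% of windows, matched 9 times in *Cd276* with overlaps between matches, 2 times each in *Cd80* and *Icosl*, once in *Pdcd1lg2*, and not in *Cd274* or *Vsir*. The STAT-type motif TTCNNNGAA (7.02% of windows) and the interferon-response-type motif GAAANNGAAA (2.98%) matched in none of the 6. These are matches of letters in a short window and not measured binding sites, and *Cd86* has no window here.

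The 7 ligands moved in opposite directions in cKO iGCBs. *Cd80* rose 5.11-fold, while *Cd86* fell to 36.6%, *Vsir* to 42.5%, *Pdcd1lg2* to 58.0%, *Cd274* to 59.4% and *Icosl* to 75.3% of control. *Cd276* had low counts and did not pass the test. By edgeR's quasi-likelihood test with Benjamini-Hochberg adjustment over 13296 genes, 1 ligand was higher and 5 were lower at an adjusted p under 0.05, against 24.1% of all tested genes higher and 24.5% lower. With a change of more than 1.5-fold required as well, 1 ligand was higher and 4 were lower, against 10.4% and 10.6% of genes. The 3 cKO libraries lay above all 3 control libraries for 1 ligand and below them for 5, a separation seen in 29.2% and 29.5% of genes. The median log2 fold change of the ligands was -0.75, beside -0.004 over all genes tested. The share of ligands that fell was above that of all genes, and the share that rose was not far from it, but the ligands were chosen with earlier results of these data known and nothing particular to the family is read from these counts. All 7 ligands passed the filter on low counts in each group of libraries separately.

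**Figure D1:**
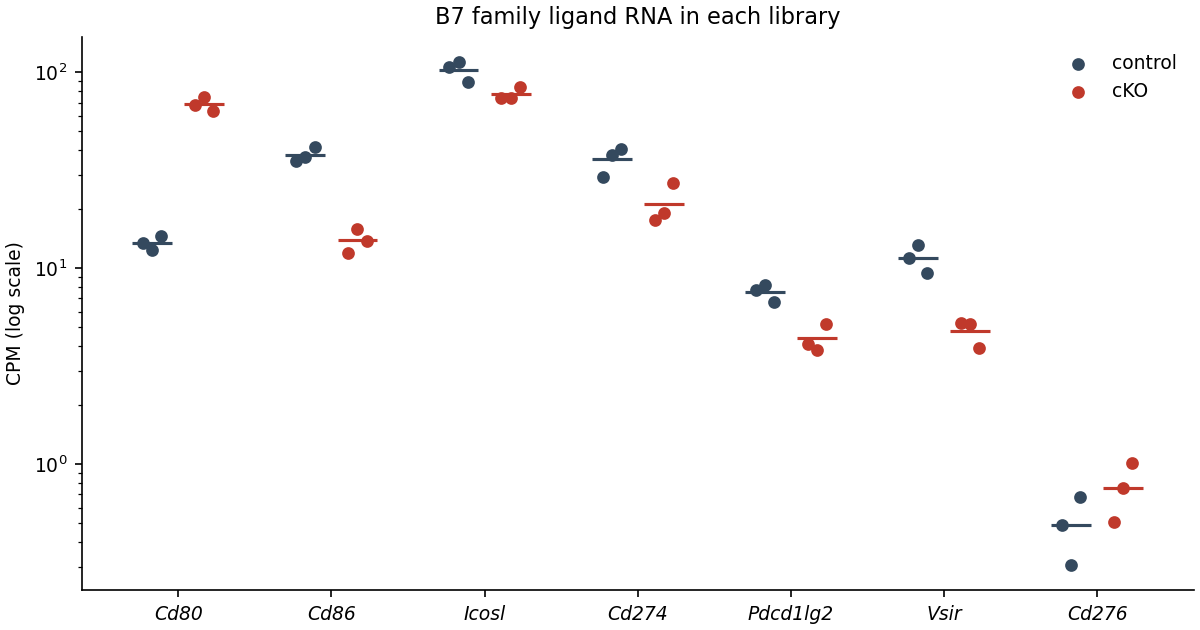
Level of each ligand in every library, in CPM on a log axis, with 1 point per library (control dark, cKO red) and a line at each group mean. *Cd80* is the ligand whose cKO libraries (63.5 to 74.7 CPM) all lie above control (12.4 to 14.7 CPM), while *Cd276* overlaps between groups.

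The ligands of CD28 and CTLA-4, *Cd80* and *Cd86*, separated most. *Cd80* had 68.3, 74.7 and 63.5 CPM in cKO libraries 1 to 3 and 13.4, 12.4 and 14.7 CPM in control libraries 1 to 3. Every cKO library was thus far above every control library, with no overlap. The cKO mean of 68.8 ± 5.63 CPM compared with a control mean of 13.5 ± 1.15 CPM, a log2 fold change of 2.35 (SE 0.0965, 95% interval 2.14 to 2.57, edgeR adjusted p = 3.6e-07). The log2 fold change of *Cd80* was above that of 99.0% of tested genes. *Cd86* had 12.0, 15.8 and 13.7 CPM in cKO libraries and 35.3, 36.8 and 41.5 CPM in control libraries. The highest cKO library stood well below the lowest control library. *Cd86* fell from 37.9 ± 3.23 to 13.9 ± 1.92 CPM, a log2 fold change of -1.45 (SE 0.117, 95% interval -1.71 to -1.19, edgeR adjusted p = 7.81e-06), and only 2.14% of tested genes had a lower one. Both calls also passed edgeR's stricter test against a 1.5-fold change, at adjusted p = 2.15e-06 for *Cd80* and adjusted p = 0.000218 for *Cd86*.

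The ratio of *Cd80* to *Cd86* counts within a library needs no scaling between libraries. It was 5.68, 4.71 and 4.64 in cKO and 0.379, 0.336 and 0.354 in control libraries. *Cd80* was the more counted gene of the pair in every cKO library and *Cd86* in every control library. On the log2 scale the ratio was 2.32 ± 0.163 in cKO and -1.49 ± 0.0872 in control iGCBs, a 14.0-fold difference (two-sided exact permutation p = 0.1, n = 3 per group, the smallest p that 3 against 3 can give). *Cd86* (chr16:36603869-36666081, minus strand, GRCm38) and *Cd80* (chr16:38455561-38496335, plus strand) are 1789479 bases apart on the same chromosome. Of the 24 genes of the table between them, 20 were tested, 4 were higher and 7 lower at an adjusted p under 0.05, beside 24.1% and 24.5% of all tested genes, with a median log2 fold change of -0.19.

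**Figure D2:**
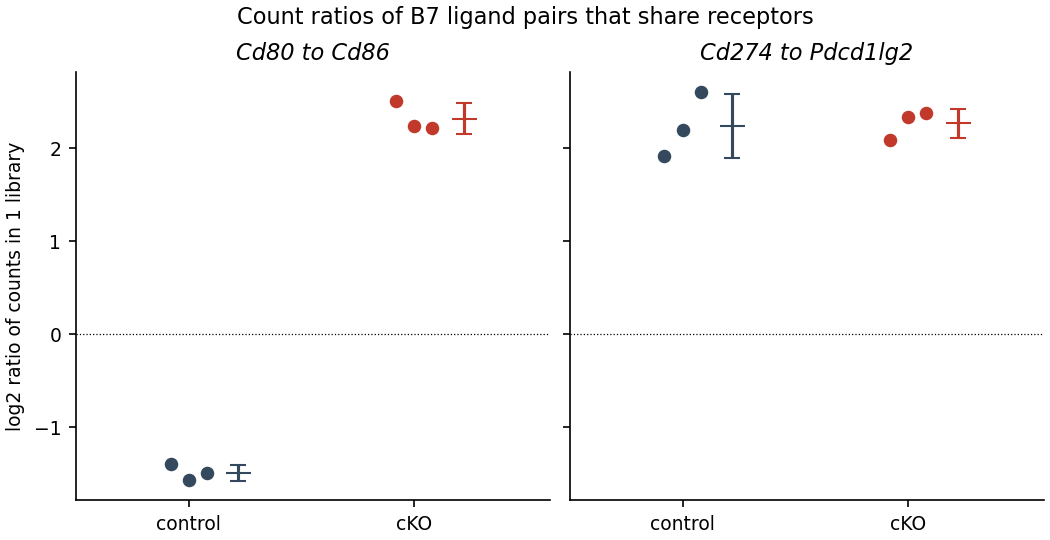
Log2 ratio of counts within each library for *Cd80* to *Cd86* and for *Cd274* to *Pdcd1lg2*, with 1 point per library and the mean ± SD of each group beside the points. The *Cd80* to *Cd86* log2 ratio averages 2.32 in cKO and -1.49 in control iGCBs, while the *Cd274* to *Pdcd1lg2* log2 ratio overlaps between groups.

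*Icosl* (chr10:78069302-78083913, plus strand), the ligand of ICOS, changed least among the ligands that passed the test. It had 73.9, 73.9 and 84.5 CPM in cKO and 106.6, 112.9 and 88.8 CPM in control libraries. The groups did not overlap, but cKO library 3 and control library 3 were close to each other. *Icosl* fell from 103 ± 12.5 to 77.4 ± 6.12 CPM, a log2 fold change of -0.41 (SE 0.0911, 95% interval -0.61 to -0.21, edgeR adjusted p = 0.00395), which is under the 1.5-fold cutoff. Among libraries with abundant *Xist* (1 cKO, 2 control) the difference in mean log2 CPM was -0.57, and among the others (2 cKO, 1 control) it was -0.17, values without a test, since each set has 1 library in 1 of its groups.

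The ligands of PD-1 fell together. *Cd274* had 17.6, 19.2 and 27.2 CPM in cKO and 29.2, 37.7 and 40.8 CPM in control libraries. The groups did not overlap, although cKO library 3 came close to control library 1. *Cd274* fell from 35.9 ± 5.98 to 21.3 ± 5.17 CPM, a log2 fold change of -0.75 (SE 0.172, 95% interval -1.13 to -0.37, edgeR adjusted p = 0.00461). *Pdcd1lg2* had 4.12, 3.80 and 5.21 CPM in cKO and 7.73, 8.24 and 6.68 CPM in control libraries, again without overlap. It fell from 7.55 ± 0.798 to 4.38 ± 0.739 CPM, a log2 fold change of -0.79 (SE 0.172, 95% interval -1.17 to -0.40, edgeR adjusted p = 0.00355). Neither gene passed the test against a 1.5-fold change, at adjusted p = 0.385 for *Cd274* and adjusted p = 0.296 for *Pdcd1lg2*.

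*Cd274* (chr19:29367455-29388095) and *Pdcd1lg2* (chr19:29410919-29471161) are neighbours on the plus strand, 22823 bases apart with 0 genes of the table between them. The ratio of *Cd274* to *Pdcd1lg2* counts was 4.27, 5.05 and 5.23 in cKO and 3.78, 4.57 and 6.10 in control libraries. The groups overlapped, and the log2 ratio was 2.27 ± 0.156 in cKO and 2.24 ± 0.348 in control iGCBs, a difference of 0.03 (two-sided exact permutation p = 1, n = 3 per group). With 3 libraries per group this does not show that the pair changed equally.

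*Vsir* (chr10:60346851-60372684, plus strand), which encodes the inhibitory ligand VISTA, had 5.24, 5.18 and 3.89 CPM in cKO and 11.3, 13.1 and 9.45 CPM in control libraries. Every cKO library was below every control library. *Vsir* fell from 11.3 ± 1.80 to 4.77 ± 0.764 CPM, a log2 fold change of -1.24 (SE 0.173, 95% interval -1.62 to -0.85, edgeR adjusted p = 0.000226), and it passed the test against a 1.5-fold change (adjusted p = 0.0078). Myeloid cells also express *Vsir*. The 12 macrophage and dendritic cell markers summed to between 5.11 and 7.33 CPM in cKO and to between 2.48 and 3.87 CPM in control libraries. Without *Adgre1*, which carried this difference, the other 11 summed to between 1.48 and 2.40 CPM in cKO and to between 1.75 and 2.95 CPM in control libraries, with overlap. Of the 12, *Cd14* and *Siglech* were at 0 counts in every library, *Csf1r* had at most 4 counts, and *Adgre1* rose (log2 fold change 1.96, edgeR adjusted p = 0.00203). The part of these markers in the *Vsir* values was not tested.

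*Cd276* (chr9:58524298-58555437, minus strand) was the least abundant ligand, with 23, 34 and 43 counts in cKO and 22, 12 and 28 counts in control libraries. The groups overlapped. Its cKO mean was 0.759 ± 0.253 CPM and its control mean 0.491 ± 0.187 CPM, a log2 fold change of 0.62 (SE 0.517, 95% interval -0.53 to 1.77, edgeR adjusted p = 0.354). The interval holds changes in either direction, so no direction is read from it. Fibroblasts express *Cd276*, and the feeder cells are fibroblasts of mouse origin. The 10 fibroblast markers summed to between 91.2 and 106 CPM in cKO and to between 59.6 and 117 CPM in control libraries. *Col1a1* had 37.2 to 40.8 CPM in cKO and 29.8 to 64.3 CPM in control libraries. *Col1a2* had 11.4 to 12.7 CPM and 7.94 to 17.3 CPM, and both overlapped between groups. *Fn1* was higher, *Thbs1* was lower, and *Lum* and *Postn* were at 0. The part of these markers in the *Cd276* values was not tested.

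**Figure D3:**
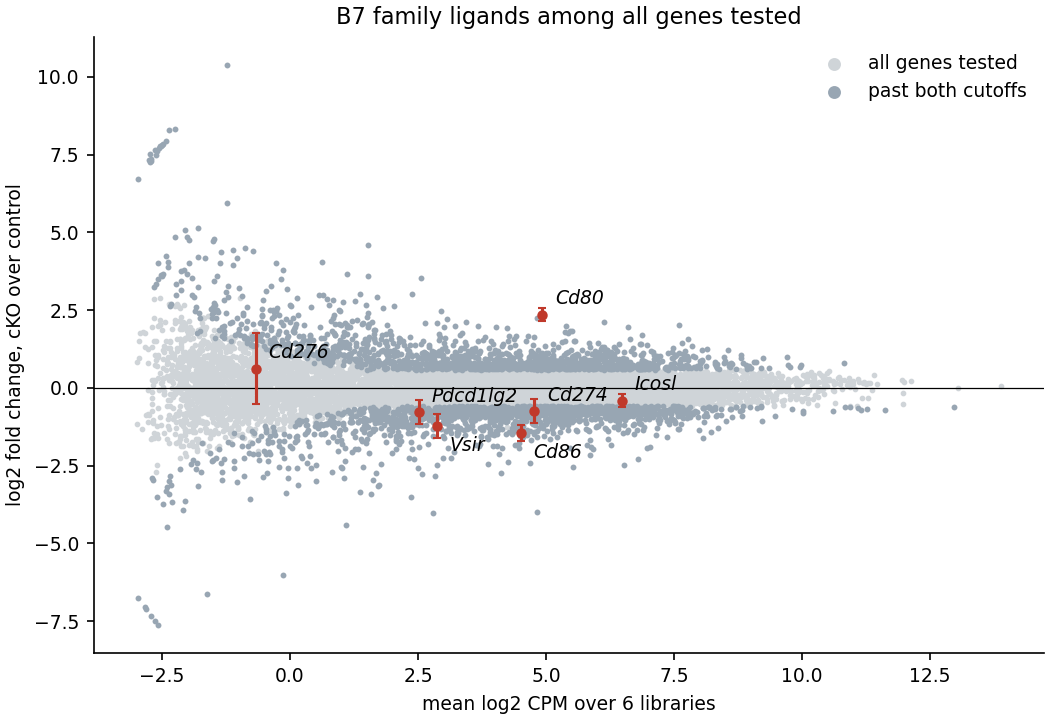
Log2 fold change (cKO minus control) against mean log2 CPM for the 13296 tested genes, those past both cutoffs in darker grey, with the 7 ligands in red with 95% intervals. *Cd80* stands at 2.35, *Cd86* at -1.45, and *Cd276* has the widest interval of the 7.

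Levels can be compared between genes only per length, as RPKM (CPM divided by the transcript length in kilobases), using GENCODE M21 exon lengths of the transcript with the most counts. For *Vsir* this is NM_028732 (4846 bases), although a second transcript received up to 44.6% of the counts of a library. In control iGCBs the order of mean RPKM was *Icosl* (36.5 ± 4.44), *Cd86* (14.9 ± 1.27), *Cd274* (9.91 ± 1.65), *Cd80* (7.92 ± 0.679), *Pdcd1lg2* (4.58 ± 0.484), *Vsir* (2.32 ± 0.372) and *Cd276* (0.136 ± 0.052). *Cd274* and *Cd80* overlapped between libraries and the other neighbours in this order did not. In cKO iGCBs *Cd80* came first (40.5 ± 3.31), then *Icosl* (27.5 ± 2.17), *Cd274* (5.89 ± 1.43), *Cd86* (5.46 ± 0.757), *Pdcd1lg2* (2.65 ± 0.448), *Vsir* (0.985 ± 0.158) and *Cd276* (0.211 ± 0.0703). *Cd274* and *Cd86* overlapped, and the other neighbours did not. The place of *Cd80* depends on its length: with the longest GENCODE transcript (3173 in place of 1701 bases) its mean was 21.7 RPKM in cKO, below *Icosl*, and 4.25 RPKM in control iGCBs, below *Pdcd1lg2*.

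*Cd80* and *Cd86* summed to 45.9 ± 3.83 RPKM in cKO and 22.8 ± 1.84 RPKM in control iGCBs, without overlap, and to 27.1 ± 2.33 and 19.2 ± 1.57 RPKM with the longest transcripts. *Cd80* made up 88.1% ± 1.15 of the pair in cKO and 34.7% ± 1.37 in control iGCBs (79.9% ± 1.78 and 22.2% ± 1.05 with the longest transcripts). The PD-1 ligands summed to 8.54 ± 1.85 RPKM in cKO and 14.5 ± 1.5 RPKM in control iGCBs. The total of the 7 ligands was 83.2 ± 3.03 RPKM in cKO and 76.3 ± 3.29 RPKM in control iGCBs, with overlap between libraries. With the longest transcripts the total was lower in cKO (64.3 ± 3.07 against 72.4 ± 3.55 RPKM), so its direction rests on the length taken for *Cd80*.

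**Figure D4:**
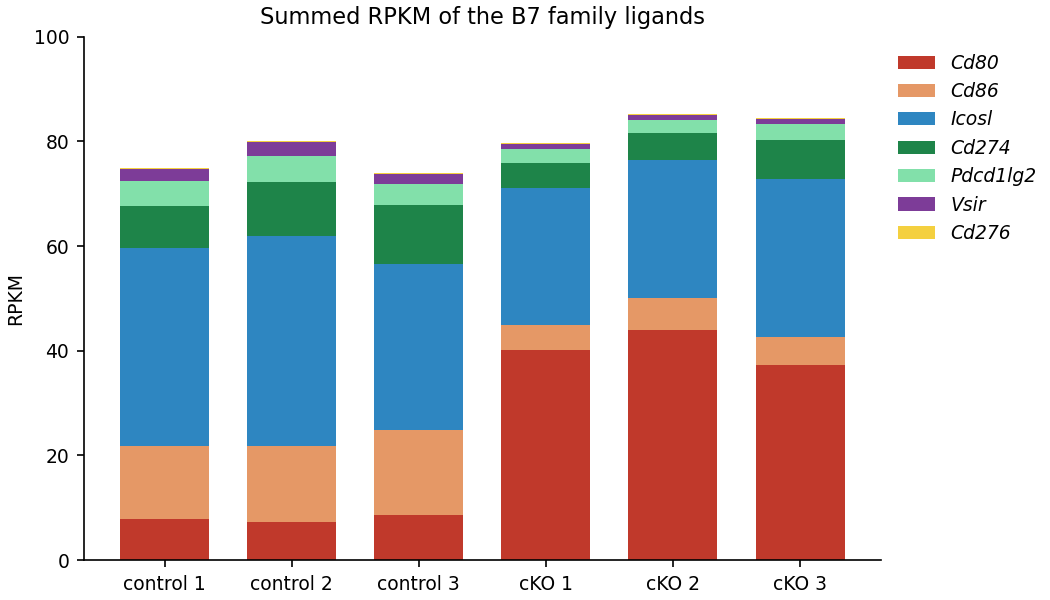
Stacked bars of the RPKM of the 7 ligands in each of the 6 libraries, from 0. *Cd80* takes 48.7% of the summed RPKM in cKO libraries on average and 10.4% in control libraries, and *Icosl* 33.1% and 47.8%; *Cd276* is too low to be seen.

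The transcript table is another view of the same reads and adds no independent evidence. It lists 1 RefSeq transcript for each ligand except *Vsir*, which has 2. Of 18040 transcripts tested, 6.26% were higher and 6.8% lower past both cutoffs, and among ligand transcripts 1 was higher (*Cd80*) and 3 were lower (*Cd86*, *Pdcd1lg2* and NM_028732 of *Vsir*). The *Pdcd1lg2* transcript was just inside the threshold (edgeR adjusted p = 0.0467) and missed it in each of the 6 fits with 1 library left out, at adjusted p from 0.0522 to 0.133, with no filter on low counts (adjusted p = 0.0712) and with the replicate number as a block (adjusted p = 0.143). The *Cd274* transcript missed the threshold there (edgeR adjusted p = 0.0513), and passed it without cKO library 3 (adjusted p = 0.0256) and with the block (adjusted p = 0.0347). The number of ligand transcripts that were lower was therefore 2 or 3 with 1 library left out. The *Vsir* transcript NM_028732 had 173, 129 and 165 counts in cKO and 458, 298 and 389 counts in control libraries, a log2 fold change of -1.36 (SE 0.229, edgeR adjusted p = 0.0092). Its other transcript, NM_001159572, had 65, 104 and 0 counts in cKO and 50, 215 and 0 counts in control libraries, and with counts of 0 in 1 library of each group it did not pass the test (edgeR adjusted p = 0.829).

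Other genes of the family and of the pathway were taken from lists. Of 12 further B7 and butyrophilin genes, 11 are in the table, 2 passed the filter and both were lower at an adjusted p under 0.05, the threshold passed by 24.1% of all tested genes in the higher and 24.5% in the lower direction. *Btnl2*, a butyrophilin-like gene, had a log2 fold change of -1.38 (edgeR adjusted p = 0.000439). *Btnl1* had a log2 fold change of -0.50 (edgeR adjusted p = 0.0489), and it missed the threshold when any of 5 libraries was left out, at adjusted p up to 0.179. *Vtcn1*, which encodes B7-H4, was at 0 counts in every library.

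Receptors of the ligands were also found in these iGCBs, which were sorted on YFP. Of 8 receptor genes 4 were tested, of which 0 were higher and 3 lower at an adjusted p under 0.05, beside 24.1% and 24.5% of all tested genes. *Ctla4*, the inhibitory receptor of CD80 and CD86, had 6.17, 7.29 and 5.99 CPM in cKO and 10.4, 9.64 and 9.74 CPM in control libraries, a log2 fold change of -0.61 (edgeR adjusted p = 0.00339). *Cd28* had 1.70, 1.69 and 1.74 CPM in cKO and 4.28, 4.61 and 2.16 CPM in control libraries, with control library 3 close to the cKO libraries. Its log2 fold change was -1.10 (edgeR adjusted p = 0.0113), with an adjusted p of 0.0505 without control library 2 and 0.0634 with *Xist* as a covariate. *Selplg*, which encodes PSGL-1, a partner of VISTA, fell by 0.84 on the log2 scale (edgeR adjusted p = 0.00019). *Icos* and *Pdcd1* had at most 14 counts in any library. The 8 T cell markers summed to between 36.3 and 46.2 CPM in cKO and to between 59.3 and 70.3 CPM in control libraries, almost wholly from *Lck* and *Thy1*. *Cd3e* was at 0 in every library and the other CD3, CD4 and CD8 genes had at most 10 counts. The part of these markers in the receptor values was not tested.

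Of 9 genes for factors that set how long B7 proteins stay at the cell surface, 4 were higher and 1 was lower at an adjusted p under 0.05, beside 24.1% and 24.5% of all tested genes, with a median log2 fold change of 0.12. *Cmtm6*, which protects PD-L1 from degradation, had a log2 fold change of -0.65 (92.0 ± 6.74 against 144 ± 3.20 CPM, edgeR adjusted p = 2.08e-05). Its relative *Cmtm4* rose, with a log2 fold change of 0.47 (edgeR adjusted p = 0.0154), and missed the threshold without cKO library 3 or control library 3, at adjusted p up to 0.0546. *Cops5* (0.50), whose product deubiquitinates PD-L1, and *Stub1* (0.32), an E3 ligase, also rose on the log2 scale. *Adam10*, which encodes a protease that sheds surface proteins, had a log2 fold change of 0.21 (edgeR adjusted p = 0.0124), and an adjusted p of 0.0591 without control library 1. *March1*, whose ligase targets CD86, had a log2 fold change of 0.12 and did not pass the test.

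Of 15 genes for transcription factors that act on B7 genes, 6 were higher and 4 lower at an adjusted p under 0.05, with a median log2 fold change of -0.0014. The background was 24.1% of tested genes higher and 24.5% lower, so the share of these factors that was lower was near the background. The largest increases among those that passed were in *Nfkb1* (0.83), *Nfkb2* (0.51) and *Relb* (0.42), subunits of NF-kB, and in *Irf4* (0.42). *Nfkb1* had 723, 777 and 657 CPM in cKO and 390, 388 and 434 CPM in control libraries, without overlap. The largest decreases among those that passed were in *Spi1* (-0.87), which encodes PU.1, *Irf8* (-0.35), *Bcl6* (-0.32), the germinal center repressor, and *Stat3* (-0.21). *Stat6* and *Batf* were also higher, while *Rel*, *Rela*, *Irf1*, *Hif1a* and *Myc* did not pass. Over the 4 lists, 10 of 30 tested genes were higher and 10 lower, again beside 24.1% and 24.5% of all tested genes.

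**Figure D5:**
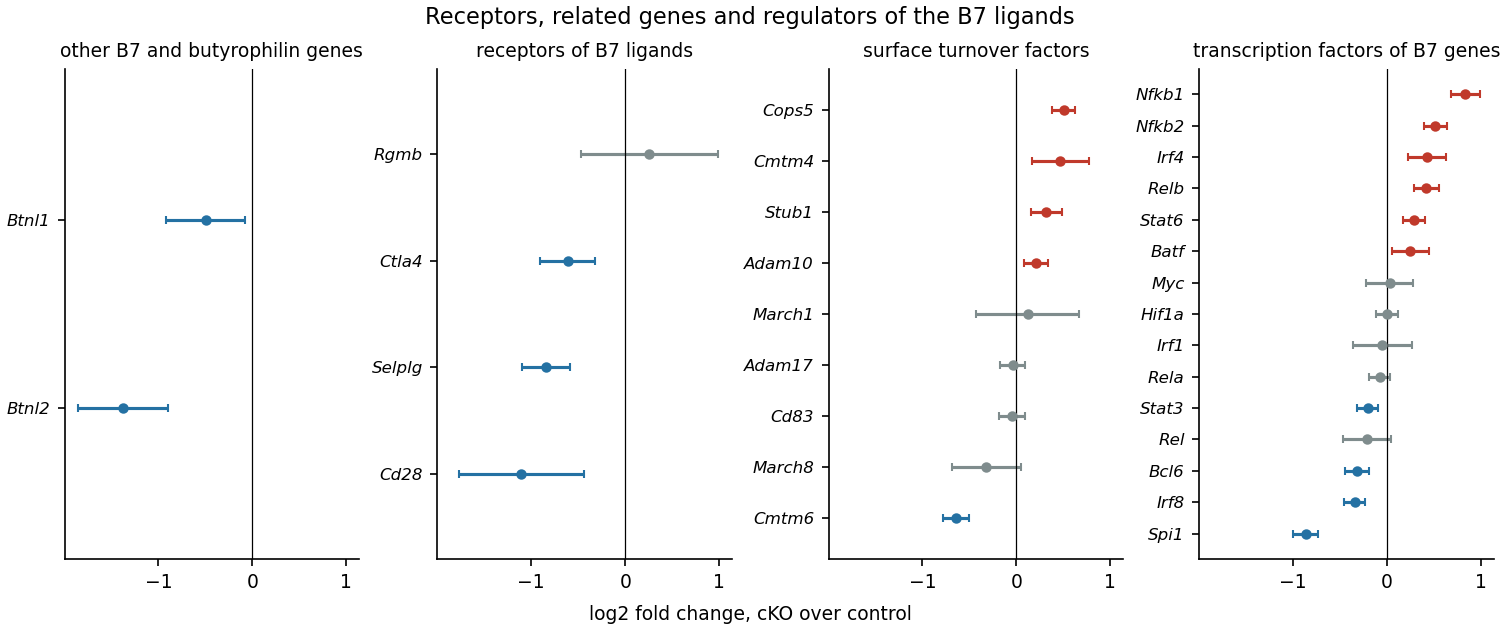
Log2 fold change (cKO minus control) with 95% interval for each tested gene of the other B7 and butyrophilin, receptor, surface turnover and transcription factor lists, in red or blue where the adjusted p was under 0.05. *Nfkb1* at 0.83 is the highest of the genes plotted and *Btnl2* at -1.38 the lowest.

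The genes whose pattern over the 6 libraries was most like that of *Cd80* and *Cd86* were sought among 8513 genes with a mean of at least 10 CPM, by the root mean square distance of centred log2 CPM. For *Cd80* they were *Bcl2l1* (distance 0.154), *Bmp1* (0.181) and *Fam212b* (0.201), with log2 fold changes of 2.12, 2.25 and 2.23. For *Cd86* they were *Herpud1* (0.112), *Pik3ip1* (0.114) and *Tnfrsf26* (0.114), with log2 fold changes of -1.43, -1.59 and -1.30. Within the libraries with abundant *Xist* and within the others, again without a test, the difference in mean log2 CPM was 2.53 and 2.16 for *Cd80*, -1.18 and -1.69 for *Cd86*, -1.22 and -1.06 for *Vsir*, -0.79 and -0.90 for *Cd274*, and -1.06 and -0.52 for *Pdcd1lg2*.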

How the data were processed

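The authors trimmed the reads, aligned them to mm10 with HISAT2 and used StringTie and its prepDE script to estimate counts for genes and for RefSeq transcripts, as the labels and the study's methods state; versions and the read length setting are not given in the sources used here. The deposited estimated counts are whole numbers and not normalized. The titles give 3 days of culture, while the labels' general protocol gives a longer one. Tests used edgeR 4.0.16 in R 4.3.3, with filterByExpr (minimum count 10), TMM scaling and the quasi-likelihood test between cKO and control, no covariates, and Benjamini-Hochberg adjustment over all 13296 genes or 18040 transcripts tested. The thresholds were an adjusted p of 0.05 and, where stated, a 1.5-fold change. The fit was tested on simulated data, where the first limit set on the share of changed genes recovered was not met. The misses were genes with low counts, and the limit was then applied to genes with higher counts only. Ratios had 0.5 added to each count for the log2 scale.

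The 7 members and the gene lists were chosen with earlier results of these data known. Named genes were the members, the genes of the other B7, receptor and surface turnover lists with an adjusted p under 0.05, the 4 largest increases and 4 largest decreases of the reported transcription factors that passed, 3 genes most like *Cd80* and *Cd86*, *Eif3e*, *Xist* and markers. Genes named outside this rule (*Vtcn1*, *Icos*, *Pdcd1*, *Stat6*, *Batf* and factors that did not pass) were chosen after their values were seen. Some list members are not reported here, and the counts, medians and sums of those lists are over the others. *March1* and *March8* appear as dates in the gene table and were matched because the sums of 4 RefSeq transcripts equal those rows in 6 of 6 libraries. Gene positions and lengths are from GENCODE M21 on GRCm38 and promoters from RefSeq on GRCm38.p6, matched by symbol for 6 of 7 members. The floor of 3 counts is 0.0659 to 0.0768 CPM and covers counting error only. Alternatives included DESeq2 1.42.0, other scalings and filters, the replicate number as a block, *Xist* as a covariate, and each library left out in turn. Counts divided by 2 were added after seeing the data.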

Additional observations from a re-analysis of the deposited data

How the results depend on the processing

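At 3 libraries per group, 0.1 is the smallest p of an exact permutation test. *Cd276* had the fewest counts and the widest interval of the 7 ligands. The 7 ligands kept their direction and their side of the threshold under every alternative run for their fold changes. In edgeR's test against a 1.5-fold change, 2 ligands were lower (*Cd86* and *Vsir*) in place of 4, since that test asks for more than a fold change past the cutoff. With the longest transcript the level of *Cd80* in control iGCBs was 4.25 RPKM in place of 7.92. The difference in log2 ratio of *Cd274* to *Pdcd1lg2*, 0.03, ranged from -0.13 to 0.21 with 1 library left out and changed sign without cKO library 2, cKO library 3 or control library 1. Among the single genes named beside the ligands, *Btnl1*, *Cd28*, *Cmtm4* and *Adam10* missed the threshold under at least 1 alternative, and the cause was not tested. Leaving out immunoglobulin genes changed nothing, because 0 rows matched.

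Whether the replicate numbers pair the samples is not known, and correlations over 3 libraries per group cannot decide it. The study used paired t tests for its flow cytometry of control and cKO iGCBs. Same-numbered libraries correlated at 0.0085, 0.0839 and 0.133 in their deviations from the group means, and not every library correlated best with its own number. With the replicate number as a block, 1 ligand was higher and 4 were lower, *Cd80* had a log2 fold change of 2.35 and *Cd86* of -1.46, and 1337 genes were higher and 1398 lower, against 1378 and 1415 without the block. The block changed no call of a ligand in the gene table. In the transcript table the lower count, 3, stayed at 3 with the block, where *Cd274* replaced *Pdcd1lg2*, and was 2 with no filter on low counts and 2 or 3 with 1 library left out.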
